A study of Homo sapiens with 4 samples.

Results

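The interferon response and RNA sensing genes examined here were 41 human genes, chosen by name for their function with earlier results of these data known. They were found by their symbol in the count tables, which list 60623 genes in all. Each of the 41 genes was placed in a single group by role, 14 in RNA sensing or interferon signalling and 27 as interferon-induced genes. This grouping does not mean that interferon induces none of the 14. All 41 had a row, 36 had enough counts to be tested, and IRF7, IRF9, IFITM1, IFITM2 and RSAD2 did not. The cells were BICR10, a head and neck cancer line, infected with lentivirus that carried a control hairpin (shControl, 2 libraries) or a hairpin against YEATS2 (shYEATS2, 2 libraries) and selected with puromycin. YEATS2 is a reader of crotonylated and acetylated histones. Both groups thus received a virus and a selection drug, and uninfected cells were not analysed here. The paper lists a pair of YEATS2 hairpins, and the labels do not say which of them a library carried or whether libraries of a group came from separate cultures, so the p-values measure only the spread between these libraries.

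Cells detect viral RNA with cytosolic helicases, such as RIG-I and MDA5, and with the endosomal receptor TLR3. The helicases signal through the adaptor MAVS to the transcription factor IRF3, which switches on interferon genes. Secreted interferon binds the receptor made of IFNAR1 and IFNAR2, whose kinases JAK1 and TYK2 activate STAT proteins. STAT2 joins IRF9 in a complex that binds the interferon-stimulated response element (ISRE) in promoters and raises antiviral genes such as the IFIT, OAS and MX families. Many epithelial and mesenchymal cells also keep a low level of these genes without added interferon.

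The libraries held between 11334133 and 47297970 counts on genes, and both shYEATS2 libraries were less deep than both shControl libraries, so depth ran with the hairpin. YEATS2 mRNA stood at 66.1 and 66.7 CPM (counts relative to library size, scaled for composition by edgeR's TMM method) in the shControl libraries and at 29.2 and 29.1 CPM in the shYEATS2 libraries, a log2 fold change of −1.19 ± 0.08 (SE, edgeR adjusted p = 3.55e-21). Head and neck cancers mostly arise from squamous epithelium, and the markers of that epithelium were weak here. The 10 markers summed to 212 and 213 CPM in shControl and to 146 and 137 CPM in shYEATS2. SFN, which was not called, made up most of these sums, at 126 to 136 CPM. KRT6A fell from 55.0 and 58.2 CPM to 1.38 and 2.21 CPM, and KRT5 from 16.4 and 15.0 CPM to 1.03 and 1.36 CPM. TP63 and KRT17 stayed under 1 CPM in every library, and of the list 5 were lower and 1 was higher (CDH1) in shYEATS2. In contrast 10 fibroblast markers summed to 8804 CPM or more in shControl and to 3939 and 4213 CPM in shYEATS2, with 7 lower, 1 higher and THY1 under 1 CPM. Of 10 leukocyte markers 9 were under 1 CPM in every library, PTPRC among them, and the list summed to between 0.908 and 2.71 CPM. Among the 9 the value of CD68, 0 CPM, is uncertain, because another gene on its strand covers 81.6% of its exon length. Of 6 markers of plasmacytoid dendritic cells, which are strong interferon producers, 5 were under 1 CPM and TCF4 made up nearly all of a sum of 29.4 to 48.7 CPM, lower in shYEATS2. The 6 endothelial markers, 4 of them under 1 CPM, summed to 35.6 and 36.6 CPM in shControl and to 18.9 and 20.2 CPM in shYEATS2, a fall carried by KDR (log2 fold change −1.004, edgeR adjusted p = 1.11e-14). The part of these marker changes in the results that follow was not tested. In bulk RNA, fewer cells of a type and less RNA per cell cannot be told apart.

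The interferon and RNA sensing genes did not move as a block. Calls were made at 0.05 on p-values of edgeR's quasi-likelihood test, Benjamini-Hochberg adjusted across 17058 genes. By this rule 11 of the 36 tested members were lower in shYEATS2 (30.6%), 6 were higher (16.7%) and 19 were not called. Over all tested genes 23.6% were lower, 22.6% were higher and 46.2% were called in either direction, so the members' 17 calls (47.2%) were near the background. The median log2 fold change of the tested members was −0.06, beside −0.01 over all tested genes, and their quartiles lay at −0.40 and 0.16, beside −0.31 and 0.32. The shYEATS2 libraries did not overlap the shControl libraries in 15 members that were below and 10 that were above (36.3% and 35.3% of all tested genes). A change of at least 2-fold was called for 2 members, IRF1 and OASL (5.56%), against 9.69% of all tested genes.

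The members fell into those whose call held under every setting tried and those whose call did not. The 7 falls that held were those of IFI44L, TLR3, IFI27, IFI44, IFI6, OAS3 and IFITM3, and the rise that held was that of IRF1. How many of all tested genes held likewise was not counted, so these 8 are not set against a background. With DESeq2 in place of edgeR these 8 were the members called, so that 7 were lower and 1 was higher (17.3% and 16.5% of all tested genes with DESeq2). With libraries scaled by their totals alone, which moved the median of all tested genes up by 0.13 on the log2 scale, 8 members were lower and 8 were higher, beside 15.0% and 31.9% of all tested genes, and the members' median was 0.079 in place of −0.06. With counts thinned to the smallest library, 8 members were lower and 2 were higher, beside 22.3% and 21.7% of the 14200 genes then tested. With each library left out in turn, the log2 fold changes of the 6 rises stayed above 0. The lowest was that of IFI35, at 0.01 without shYEATS2 replicate 1.

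**Figure D1:**
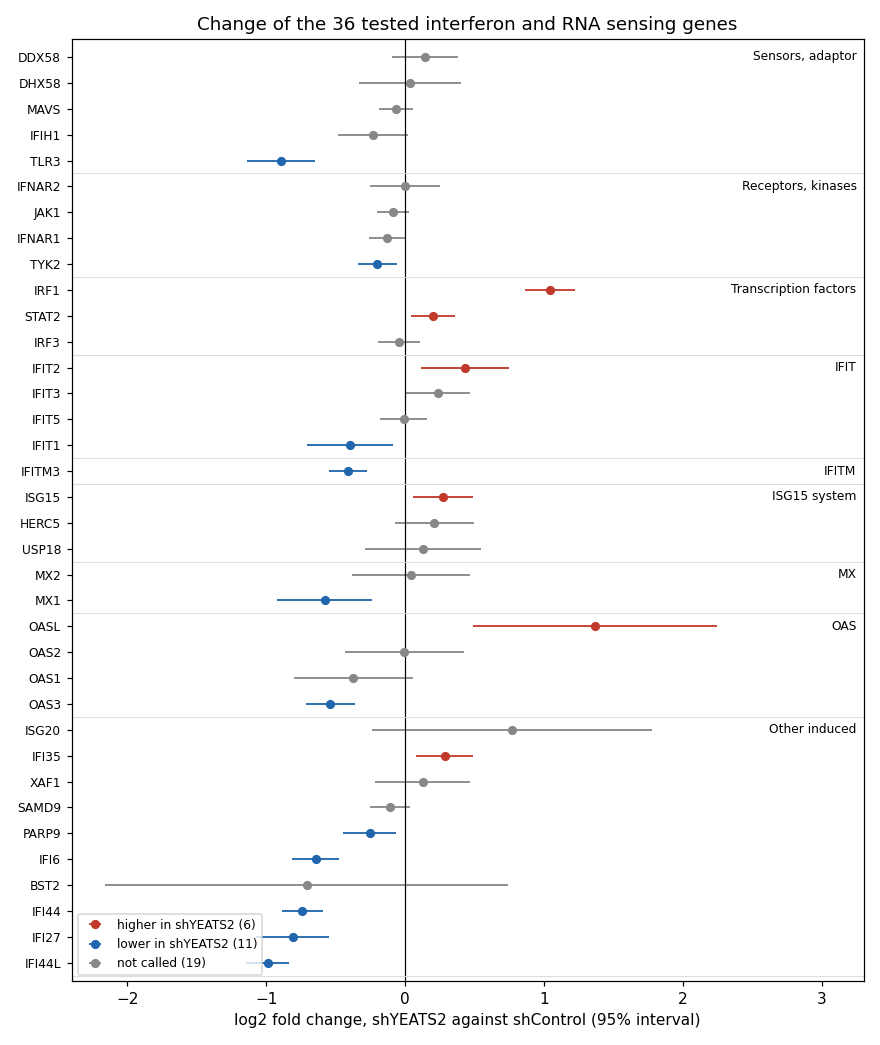
Log2 fold change of the 36 tested members (x axis) by gene (y axis), grouped by role, with bars for the 95% interval of the edgeR fit and colours for higher (6), lower (11) or not called (19) in shYEATS2. The clear falls are those of TLR3, IFI44L, IFI27, IFI44, IFI6, OAS3 and IFITM3, IRF1 and OASL stand at the right, and most sensors and receptors lie near 0.

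Among the RNA sensors and their adaptor, TLR3 was called and the other 4 were not. TLR3 (ENSG00000164342, chromosome 4, 186068911 to 186088073, plus strand, GRCh38) recognises double-stranded RNA in endosomes. It was measured at 14.8 and 18.0 CPM in the shControl libraries and at 8.29 and 9.67 CPM in the shYEATS2 libraries. The shYEATS2 libraries were both below the shControl libraries, with 53.9% of the control level left. The log2 fold change was −0.89 ± 0.12 (SE, edgeR adjusted p = 7.9e-09), and it ranged from −1.03 to −0.75 when libraries were left out in turn.

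None of the cytosolic sensors passed the test. DDX58, which encodes RIG-I, was at 10.6 CPM in both shControl libraries and at 12.1 and 11.2 CPM in the shYEATS2 libraries, with a 95% interval of −0.09 to 0.38 for the log2 fold change. An annotated gene that the count tables do not list covers 43.2% of its exon length. IFIH1, which encodes MDA5, was at 10.3 and 10.4 CPM in shControl and at 8.9998 and 8.57 CPM in shYEATS2, with an interval of −0.49 to 0.02. The groups did not overlap for either gene, which also held for 35.3% (above) and 36.3% (below) of all tested genes. DHX58, which encodes LGP2, a relative of RIG-I that modulates sensing, was at 3.90 to 4.60 CPM in the 4 libraries, with an interval of −0.33 to 0.41. MAVS, the mitochondrial adaptor, was at 199 and 190 CPM in shControl and at 195 and 175 CPM in shYEATS2, with an interval of −0.19 to 0.06.

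Of the interferon receptor and its kinases, TYK2 passed the test and the other 3 did not. JAK1 was at 381 and 398 CPM in shControl and at 365 and 369 CPM in shYEATS2, with an interval of −0.20 to 0.03. IFNAR1 was at 95.1 and 94.3 CPM in shControl and at 84.9 and 88.8 CPM in shYEATS2, with an interval of −0.26 to 0.004. IFNAR2 was at 9.26 to 10.8 CPM over the 4 libraries and its groups overlapped, and a read-through gene with 0 counts covers 14.7% of its exon length. TYK2 was at 72.1 and 72.4 CPM in shControl and at 66.2 and 58.5 CPM in shYEATS2, a log2 fold change of −0.20 ± 0.07 (SE, edgeR adjusted p = 0.015). This call was lost with library totals (−0.07), with DESeq2 and without either shControl replicate or shYEATS2 replicate 2.

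Of the 5 transcription factors, IRF1 rose clearly. IRF1 (ENSG00000125347, chromosome 5, 132440440 to 132508719, minus strand) encodes an activator that binds response elements of antiviral and antigen presentation genes. It was measured at 17.5 and 16.7 CPM in the shControl libraries and at 36.9 and 32.9 CPM in the shYEATS2 libraries. Both shYEATS2 libraries stood above both shControl libraries, and the fitted level was 206% of control. The log2 fold change was 1.04 ± 0.09 (SE, edgeR adjusted p = 1.2e-15), and it stayed between 0.93 and 1.11 when each library was left out. Antisense genes cover 22.9% of the exon length of IRF1, and the strand setting of the counting is not given in the sources used here.

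STAT2, a subunit of the factor that binds the ISRE, was at 35.96 and 35.3 CPM in shControl and at 41.1 and 40.7 CPM in shYEATS2, a log2 fold change of 0.20 ± 0.08 (SE, edgeR adjusted p = 0.034). It was not called by DESeq2 (adjusted p = 0.10), nor without shYEATS2 replicate 1 or either shControl replicate. IRF3, which the sensing pathways activate, was at 52.3 and 54.4 CPM in shControl and at 55.9 and 46.2 CPM in shYEATS2, with groups that overlapped, and a gene on the other strand covers 19.3% of its exon length. The partner of STAT2, IRF9, was nearly undetected, with 8 and 3 counts in shControl and 2 counts in each shYEATS2 library. In GENCODE 44 another gene on the same strand covers 23.9% of its exon length, and HTSeq by default gives read pairs that fall on overlapping genes to neither, so the low count is uncertain. IRF7, which amplifies interferon production, had 0 counts in 3 libraries and 1 count in shYEATS2 replicate 2.

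Among the induced genes, IFI44L had the largest fall, and its neighbour IFI44 fell as well. IFI44L (ENSG00000137959, chromosome 1, 78619902 to 78646145, plus strand) was measured at 63.6 and 65.9 CPM in shControl and at 31.3 and 34.5 CPM in shYEATS2, with 50.4% of the control level left. Its log2 fold change was −0.99 ± 0.08 (SE, edgeR adjusted p = 1.5e-17). IFI44 (ENSG00000137965, chromosome 1, 78649796 to 78664078, plus strand) was at 68.3 and 68.4 CPM in shControl and at 40.3 and 41.8 CPM in shYEATS2, with 59.9% left. Its log2 fold change was −0.74 ± 0.07 (SE, edgeR adjusted p = 2.3e-13). Both genes encode cytosolic proteins of the same family.

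IFI27 and IFI6, which encode small membrane proteins that interferon α induces and that are related in sequence, also fell. IFI27 (ENSG00000165949, chromosome 14, 94104836 to 94116695, plus strand) was at 12.3 and 11.8 CPM in shControl and at 7.22 and 6.28 CPM in shYEATS2. Its log2 fold change was −0.81 ± 0.13 (SE, edgeR adjusted p = 3.8e-07). IFI6 (ENSG00000126709, chromosome 1, 27666064 to 27672212, minus strand) was at 46.8 and 42.2 CPM in shControl and at 30.2 and 26.0 CPM in shYEATS2. Its log2 fold change was −0.64 ± 0.08 (SE, edgeR adjusted p = 2.2e-09). On its strand LINC02574, with 0 counts, covers 23.1% of the exon length of IFI6. In IFI27 and IFI6 each shYEATS2 library was below each shControl library, with 57.0% and 64.0% of the control level left.

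Within the families, members next to each other on a chromosome differed in their calls. OAS1, OAS3 and OAS2 lie side by side on chromosome 12 and encode oligoadenylate synthetases, which sense double-stranded RNA and activate RNase L. OAS3 (ENSG00000111331, 112938051 to 112976460, plus strand) fell from 34.5 and 34.2 CPM to 22.5 and 25.5 CPM, a log2 fold change of −0.54 ± 0.09 (SE, edgeR adjusted p = 5.6e-07). OAS1 was at 3.40 and 4.02 CPM in shControl and at 2.53 and 3.39 CPM in shYEATS2 and OAS2 at 2.9999 to 3.22 CPM over the 4 libraries, and neither passed the test. Their intervals, −0.80 to 0.05 and −0.43 to 0.42, include the log2 fold change of OAS3 for OAS1 but not for OAS2. The difference between these genes was not tested.

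OASL, a relative without synthetase activity that lies apart on chromosome 12, was in the other direction at a very low level. Its counts were 17 and 19 in shControl and 25 and 16 in the less deep shYEATS2 libraries, which is 0.375 and 0.503 CPM against 0.987 and 1.36 CPM. The log2 fold change was 1.37 ± 0.44 (SE, edgeR adjusted p = 0.008). The call was lost with DESeq2 (adjusted p = 0.062), with counts thinned to the smallest library, without shControl replicate 1 and without shYEATS2 replicate 2.

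MX1 and MX2 are neighbours on chromosome 21 and encode dynamin-like GTPases that block virus entry or replication. MX1 was at 5.5997 and 7.49 CPM in shControl and at 4.58 and 3.99 CPM in shYEATS2, a log2 fold change of −0.58 ± 0.17 (SE, edgeR adjusted p = 0.004). DESeq2 did not call it (adjusted p = 0.062), and the call was lost without shControl replicate 2, where the log2 fold change was −0.37. MX2 was at 2.998 to 3.24 CPM over the 4 libraries and its groups overlapped, with an interval of −0.38 to 0.47.

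The 4 IFIT genes form a cluster on chromosome 10 and encode antiviral proteins, some of which bind the ends of viral RNA. They did not share a direction. IFIT1 was at 7.25 and 6.64 CPM in shControl and at 5.25 and 5.35 CPM in shYEATS2, a log2 fold change of −0.40 (edgeR adjusted p = 0.031). IFIT2 was at 4.92 and 6.91 CPM in shControl and at 7.34 and 8.82 CPM in shYEATS2, a log2 fold change of 0.43 (edgeR adjusted p = 0.020). Neither call held with DESeq2 or without shControl replicate 1, where IFIT2 was at 0.19, and IFIT1 was also lost without shYEATS2 replicate 1 and IFIT2 without shYEATS2 replicate 2. IFIT3 was at 10.9 and 11.04 CPM in shControl and at 13.1 and 12.7 CPM in shYEATS2, above in both libraries and not called (edgeR adjusted p = 0.086). IFIT5 was at 29.2 to 32.5 CPM in the 4 libraries, with an interval of −0.18 to 0.16.

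Of the IFITM genes, whose proteins restrict virus fusion at membranes, IFITM3 carried nearly all counts. IFITM3 (ENSG00000142089, chromosome 11, 319676 to 329475, minus strand) fell from 122 and 121 CPM to 97.4 and 83.6 CPM, a log2 fold change of −0.41 ± 0.07 (SE, edgeR adjusted p = 5.3e-07). IFITM1 was counted 7 and 8 times in shControl and 1 and 0 times in shYEATS2, and IFITM2 6 and 4 times and 0 and 2 times. Genes on the other strand cover 16.3% of the exon length of IFITM3. The IFITM genes are close paralogs, and read pairs that align to more than 1 of them are left out by the counting, so the split between them is uncertain.

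**Figure D2:**
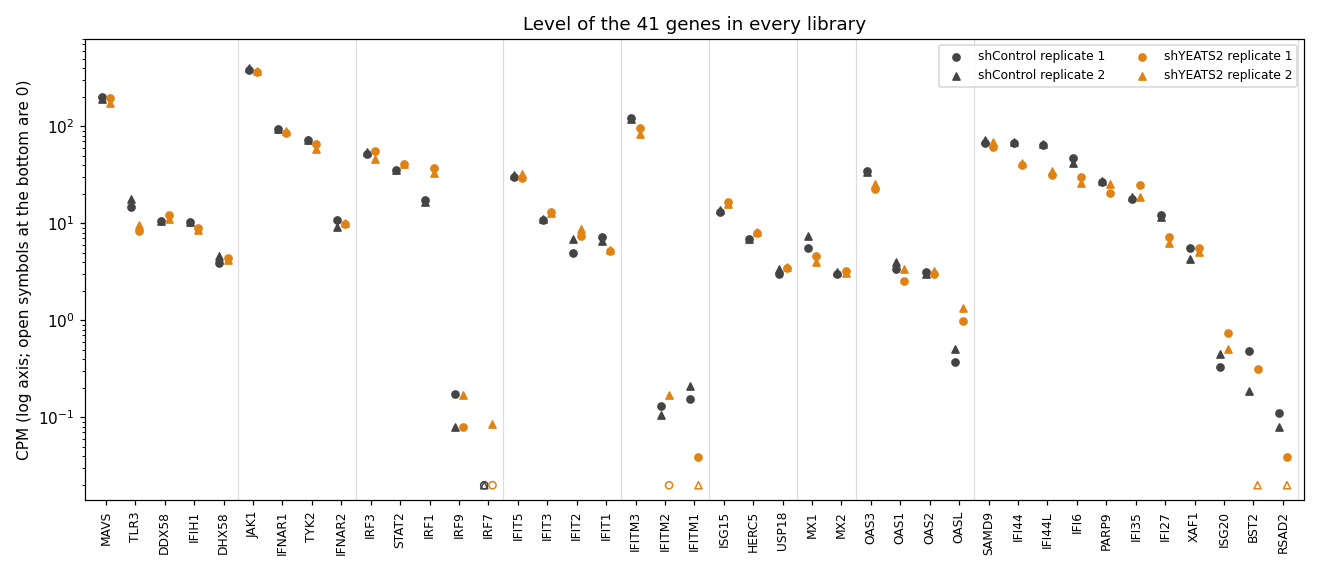
CPM of each of the 41 members in every library on a log axis, grouped by role and ordered by level within each group, with grey for shControl, orange for shYEATS2, circles for replicate 1, triangles for replicate 2 and open symbols at the bottom for 0. TLR3, IFI44, IFI44L, IFI6, IFI27 and OAS3 are lower and IRF1 is higher in both shYEATS2 libraries. Of the 9 sensor, adaptor, receptor and kinase genes 3 overlap between conditions (MAVS, DHX58 and IFNAR2). Over all tested genes, shYEATS2 lay above without overlap in 35.3% and below in 36.3%.

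In the ISG15 system, ISG15 itself was called higher and the other 2 genes were not called. ISG15, a ubiquitin-like modifier, was at 13.0 and 13.8 CPM in shControl and at 16.5 and 15.8 CPM in shYEATS2, a log2 fold change of 0.27 ± 0.11 (SE, edgeR adjusted p = 0.030). HERC5, the ligase that attaches ISG15, was at 6.99 and 6.85 CPM in shControl and at 7.93 and 8.15 CPM in shYEATS2 and was not called. USP18, the protease that removes ISG15 and blunts interferon signalling at IFNAR2, was at 2.998 and 3.39 CPM in shControl and at 3.43 and 3.56 CPM in shYEATS2 and was not called. All 3 had both shYEATS2 libraries above both shControl libraries, which also held for 35.3% of all tested genes. Their highest log2 fold change was that of ISG15. The ISG15 call was lost with DESeq2 (adjusted p = 0.145) and without shYEATS2 replicate 1 or either shControl replicate.

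Among the other induced genes, PARP9, an ADP-ribosyltransferase, was at 26.8 and 27.2 CPM in shControl and at 20.7 and 25.4 CPM in shYEATS2 (log2 fold change −0.26, edgeR adjusted p = 0.022). IFI35, which encodes a leucine zipper protein, was at 17.7 and 18.9 CPM in shControl and at 24.9 and 18.7 CPM in shYEATS2 (log2 fold change 0.28, edgeR adjusted p = 0.020), so its groups overlapped and shYEATS2 replicate 1 alone stood above. Without that library the log2 fold change of IFI35 was 0.01 and that of PARP9 −0.10, and neither gene was called, nor were they with DESeq2 or without either shControl replicate. SAMD9, a restriction factor of poxviruses, was at 68.1 and 71.8 CPM in shControl and at 61.1 and 69.7 CPM in shYEATS2, with an interval of −0.25 to 0.04. XAF1, a pro-apoptotic gene, was at 4.26 to 5.57 CPM, and an antisense gene covers 38.3% of its exon length. ISG20, BST2 and RSAD2 were under 1 CPM in every library, and RSAD2, which encodes the antiviral enzyme viperin, was counted 5 and 3 times in shControl and 1 and 0 times in shYEATS2.

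Levels can be compared between genes only per length, and here only roughly. The length used joins all annotated exons of a gene, 13174 bases for JAK1 and 936 for IFI6. It can exceed the length of the transcripts present, so the order below depends on the annotation. Per kilobase of annotated exons, the highest levels in shControl were those of IFI6 (47.5 CPM per kb), IFITM3 (42.6), IFI44 (33.5), JAK1 (29.6), MAVS (16.5) and ISG15 (15.5). In shYEATS2 the corresponding levels were 30.1, 31.8, 20.1, 27.9, 15.8 and 18.6 CPM per kb. The CPM of the 27 induced genes summed to 559 and 565 in the shControl libraries and to 439.5 and 439.2 in the shYEATS2 libraries. This sum was led by IFITM3, SAMD9, IFI44 and IFI44L, of which SAMD9 was not called. The median log2 fold change of the 24 tested induced genes was −0.06, so the sum does not describe a typical one. At the other end, 7 of the 41 members were under 1 CPM in every library.

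The promoters of the members were read from RefSeq (GRCh38.p14) as 300 bases, 250 before the start site and 50 from it on, and 31 of the 41 members had an entry. Those without an entry were IFIT2, OASL, OAS2, MX2, USP18, IFITM2, DHX58, IFNAR2, IRF3 and IRF7. The counts below thus leave out the called rises of OASL (log2 fold change 1.37) and IFIT2 (0.43) and no called fall. The ISRE core was searched as GAAA, any 2 bases, and GAAA, on either strand. It was found in 18 of the 31 member promoters (58.1%) and in 3.57% of 35116 promoters. Induced genes held it in 16 of 21 promoters (76.2%), and sensors and signalling genes in 2 of 10, IFIH1 and TLR3. Of the 17 tested members with the core in this window, 9 were lower, 1 was higher (ISG15) and 7 were not called, with a median log2 fold change of −0.41. Of the 11 tested members without it, 2 were lower, 3 were higher and 6 were not called, with a median of −0.07. With library totals alone these medians were −0.28 and 0.07. Over all tested genes 23.6% were lower and 22.6% were higher. Most tested members with the core were induced genes, while DDX58, MAVS, IRF1, STAT2, JAK1, TYK2 and IFNAR1 lacked it, so motif and role ran together. OAS1, IFI35, DDX58 and XAF1 count as without the core, though they hold GAAA, 1 base and GAAA. The counts by motif are a description of 28 genes, the pattern was noticed in these data, and a match is not a site of binding.

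**Figure D3:**
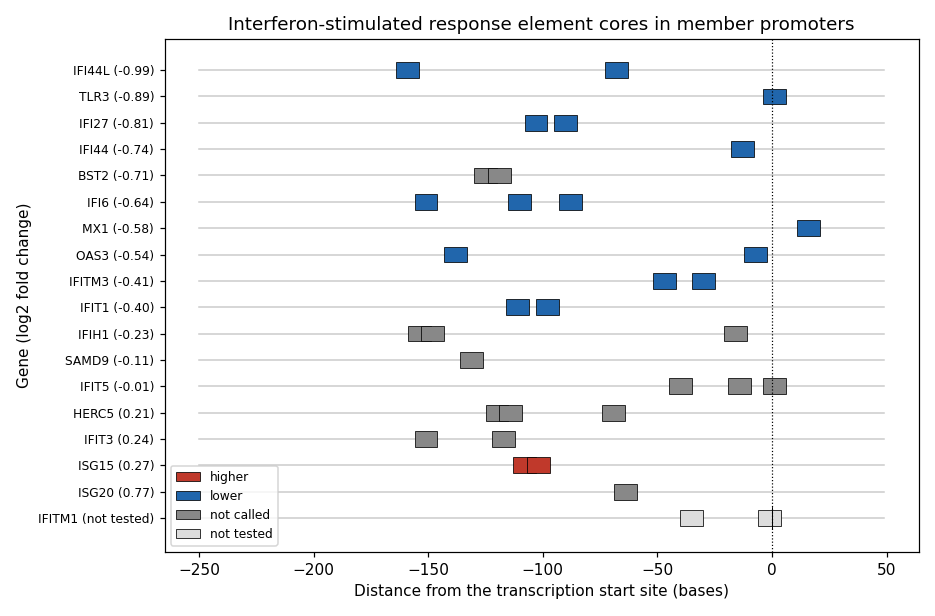
Positions of the ISRE core (bars of 10 bases) in the promoters of the 18 members that hold it, by distance from the transcription start site in bases (x axis), with genes ordered by log2 fold change (y axis) and coloured by call. The 9 lower genes and BST2, which was not called, fill the upper rows, and ISG15 is the higher gene.

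The promoters of 3 genes that fell and of 2 that did not are shown so that the elements can be compared. They are written 5′ to 3′ on the strand of the gene, with the ISRE core in capitals: IFI44L at chr1:78620198-78620497 (plus strand), IFI27 at chr14:94110486-94110785 (plus strand), OAS3 at chr12:112938224-112938523 (plus strand), ISG15 at chr1:1013247-1013546 (plus strand) and IFIT3 at chr10:89327747-89328046 (plus strand). IFI44L holds the core at 164 and 73 bases before the start site, IFI27 at 108 and 95, OAS3 at 143 and 12, ISG15 at 113 and 107 and IFIT3 at 156 and 122, counted to the first base of each match.
IFI44L: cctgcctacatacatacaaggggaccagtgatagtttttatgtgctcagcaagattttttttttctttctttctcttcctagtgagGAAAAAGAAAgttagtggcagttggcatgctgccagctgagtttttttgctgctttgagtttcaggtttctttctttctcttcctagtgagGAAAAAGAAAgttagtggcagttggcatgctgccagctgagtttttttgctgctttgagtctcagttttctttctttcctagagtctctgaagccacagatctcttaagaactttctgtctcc
IFI27: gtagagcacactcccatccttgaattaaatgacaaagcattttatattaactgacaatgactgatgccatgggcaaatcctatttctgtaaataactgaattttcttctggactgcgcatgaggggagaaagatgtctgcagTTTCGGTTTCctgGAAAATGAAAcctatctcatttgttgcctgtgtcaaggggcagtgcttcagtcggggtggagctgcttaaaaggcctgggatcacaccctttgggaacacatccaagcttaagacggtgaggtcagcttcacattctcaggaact
OAS3: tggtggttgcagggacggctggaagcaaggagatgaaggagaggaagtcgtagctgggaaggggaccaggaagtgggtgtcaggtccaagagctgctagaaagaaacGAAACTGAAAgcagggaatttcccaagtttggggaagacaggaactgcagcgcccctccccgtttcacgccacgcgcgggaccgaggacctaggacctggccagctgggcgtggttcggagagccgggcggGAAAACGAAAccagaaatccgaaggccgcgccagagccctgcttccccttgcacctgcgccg
ISG15: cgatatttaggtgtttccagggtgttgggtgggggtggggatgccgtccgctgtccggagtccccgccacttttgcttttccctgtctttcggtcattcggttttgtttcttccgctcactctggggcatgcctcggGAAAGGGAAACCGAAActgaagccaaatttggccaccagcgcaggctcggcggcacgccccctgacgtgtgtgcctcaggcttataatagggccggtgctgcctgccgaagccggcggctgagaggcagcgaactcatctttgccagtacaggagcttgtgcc
IFIT3: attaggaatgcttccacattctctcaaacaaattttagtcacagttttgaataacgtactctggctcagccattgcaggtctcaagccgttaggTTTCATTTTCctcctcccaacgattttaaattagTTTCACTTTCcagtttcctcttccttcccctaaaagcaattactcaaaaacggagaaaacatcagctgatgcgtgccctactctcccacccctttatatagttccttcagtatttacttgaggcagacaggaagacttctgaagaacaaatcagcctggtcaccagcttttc

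The promoter of IRF1, whose rise held under every setting, had no ISRE core in this window but a gamma-activated site, searched as TTCNNNGAA, which STAT dimers bind. On either strand this motif, whose matches may share bases with those of the ISRE core, was present in 8 of the 31 member promoters (25.8%) and in 7.66% of all. Besides IRF1, it was found in IFI27, IFI35, IFITM1, OAS1, TLR3, IRF9 and BST2. The falls of TLR3 and IFI27 also held under every setting, so the motif was not particular to the gene that rose. The IRF1 promoter lies at chr5:132490724-132491023 (minus strand), and the match, in capitals, starts 124 bases before the start site.
IRF1: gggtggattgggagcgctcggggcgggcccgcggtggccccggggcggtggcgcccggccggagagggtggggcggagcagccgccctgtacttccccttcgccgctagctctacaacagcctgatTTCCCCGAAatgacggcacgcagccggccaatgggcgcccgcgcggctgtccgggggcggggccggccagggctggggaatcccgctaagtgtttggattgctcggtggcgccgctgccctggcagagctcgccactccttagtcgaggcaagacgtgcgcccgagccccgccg

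The members were set beside 74 further genes of interferon signalling and nucleic acid sensing. Of these, 63 were tested, 18 were higher, 17 were lower and 28 were not called, so that 28.6% were higher and 27.0% lower, beside 22.6% and 23.6% of all tested genes. Among genes at 5 CPM or more, the 3 that rose most were SOCS3, a feedback inhibitor of JAK kinases (11.2 and 10.7 CPM to 23.2 and 20.4 CPM, log2 fold change 1.003), APOL6 (30.3 and 32.2 CPM to 52.4 and 51.9 CPM, 0.74) and the nuclear body gene SP110 (17.4 and 18.5 CPM to 28.1 and 28.9 CPM, 0.67). The 3 that fell most were UBA7, the activating enzyme of ISG15 (9.90 and 9.69 CPM to 5.9999 and 4.24 CPM, −0.87), the zinc-finger antiviral gene ZC3HAV1 (100 and 108 CPM to 65.1 and 67.4 CPM, −0.65) and the capsid-binding gene TRIM5 (16.2 and 15.5 CPM to 11.5 and 9.67 CPM, −0.56). All 6 kept their call under every alternative setting.

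Other genes of this list were named after their values were seen. TICAM1, the adaptor of TLR3, went from 17.8 and 18.0 CPM to 28.3 and 28.4 CPM, a log2 fold change of 0.66 ± 0.09 (SE), opposite to TLR3. DTX3L, the partner of PARP9, which is transcribed from the opposite strand next to it, had a log2 fold change of 0.36. CMPK2, the neighbour of RSAD2, was counted 76 and 49 times in shControl and 3 times in each shYEATS2 library, a log2 fold change of −3.16 ± 0.51 (SE). All 3 passed the test (edgeR adjusted p of 1.23e-08, 2.61e-05 and 4.41e-07), and CMPK2 could not be tested where 10 counts were required in every library.

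The interferon transcripts looked up here, which did not include those of the IFNA genes or IFNG, were largely undetected. IFNB1, IFNW1, IFNL1, IFNL2 and IFNL3 had 0 counts in all 4 libraries, which allows up to 0.0661 CPM in the deepest and 0.255 CPM in the shallowest library (3 counts, for counting error only), and IFNK had at most 2 counts. IFNE, an interferon of epithelia, had 41 and 51 counts in shControl and 7 and 3 in shYEATS2, a log2 fold change of −2.04 ± 0.50 (SE, edgeR adjusted p = 5.4e-04). It was left untested with thinned counts and where 10 counts were required in every library. CXCL10 and CXCL11, chemokines that interferon induces strongly, had 0 counts in all libraries.

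**Figure D4:**
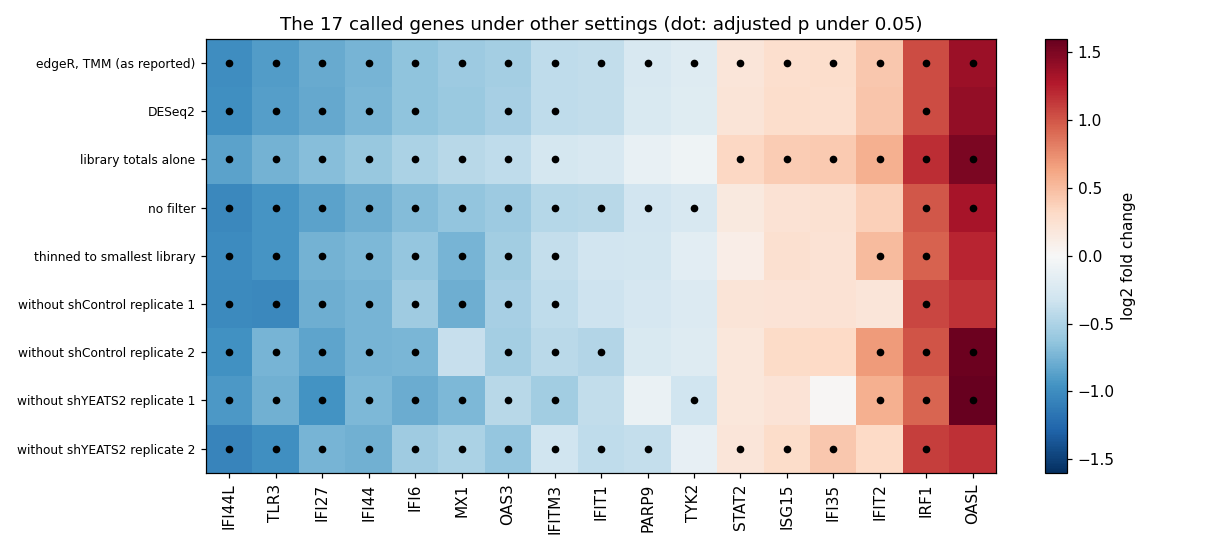
Log2 fold change (colour) of the 17 called members (x axis) under the reported fit and 8 alternatives (y axis), with a dot where the adjusted p was under 0.05. IFI44L, TLR3, IFI27, IFI44, IFI6, OAS3, IFITM3 and IRF1 carry a dot in every line, while each of the other 9 lacks it in at least 1 line.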

How the data were processed

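RNA-seq was performed by the authors on BICR10 cells with shControl or shYEATS2 (2 libraries each, stranded mRNA kit, paired 150 bp reads). Per the labels and methods, reads were aligned to GRCh38 with STAR and counted per gene with HTSeq, and the deposited values are raw counts. The annotation release and strand setting are not given in the sources used here, and 5 tally lines that name no gene were left out. With edgeR 4.0.16 in R 4.3.3, genes were kept by filterByExpr, scaled by TMM and compared by the quasi-likelihood test (robust) over all genes, with 2 libraries against 2. CPM used the scaling of this fit. Standard errors are the log2 fold change over the root of F. Genes were called at an adjusted p under 0.05 with no fold threshold. Scripts were tested on simulated data. An exact permutation test of 2 against 2 cannot go below 0.333. Alternatives were DESeq2 1.42.0, limma-voom (limma 3.58.1), other scalings, filters and thresholds, thinning, a replicate block and each library left out. Positions and exon lengths are from GENCODE 44 (60295 of the 60623 genes matched). All members were named, and of the further genes the 3 largest rises and falls at 5 CPM or more with groups that did not overlap. The members and lists were chosen with earlier results of these data known.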

Additional observations from a re-analysis of the deposited data

How the results depend on the processing

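The 17 called members kept their direction under all 14 alternatives in which they were fitted, and 8 of them kept their call under all of them. The share of all tested genes that did so was not counted. Members called higher numbered 6 as reported, 2 with no filter, with thinned counts and at an adjusted p under 0.01, and 1 with DESeq2, and ranged from 1 to 4 when each library was left out. Members called lower numbered 11 as reported and 7 with DESeq2. With library totals alone, 2567 of all genes and 10 of the further pathway genes were called lower, against 4019 and 17 as reported, and the median log2 fold change of the members was 0.079. This scaling moves every gene up by construction, and for the other settings the cause was not tested. With no filter the members' median was −0.10. Over members and alternatives, 440 values of 499 kept their side of the threshold, 52 lost their call and 7 gained one. The sign differed from the reported one in 32 of the 499, in 11 members that were not called, and in 0 called members. The numbers of the libraries do not pair them (correlation of −0.02 between the differences of replicates 1 and 2 in the 2 conditions), and a replicate block left 6 members higher and 11 lower, changed no member's call, and gave 3870 higher and 4142 lower over all genes. Leaving out a library leaves 1 group with a single library, which is assumed to vary like the other group. BST2, OASL, ISG20 and the untested members are limited by their low counts.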
